A study of Mus musculus with 4 samples.

Results

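Myb, Myc, Mycn, Hoxa9, Meis1 and Cdk6 are 6 regulators of blood progenitor growth that were chosen by name from the 31053 genes of the count matrix, and all 6 were measured. They were followed across marker-defined progenitor and mature blood classes of mouse tibia. Hoxa9 and Meis1 had their highest levels in progenitor-like and megakaryocyte-like cells, and progenitor-like cells held 57.6% and 50.6% of their UMIs (unique molecular identifiers, 1 per captured RNA molecule). Cdk6 was also highest in these 2 classes and next highest in basophil-like and granulocyte-monocyte progenitor-like cells. Myc had its highest level in mature B-like cells. Myb was highest in B-lineage precursors.

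Trabecular bone from both ends of the tibia, proximal and distal, gave the cells, which were freed with dispase, collagenase and trypsin, at an age of 8 weeks, and sequenced as single cells in droplets. The genotype of all 4 sample records was Col10a1Cre; Rosa26-Tdtomato; Irx3 +/Δ; Irx5 +/-, named a heterozygous control, and the titles state that no PTH was given. Col10a1 drives Cre in hypertrophic chondrocytes. Whether the Irx3 and Irx5 alleles alter the blood cells described here was not tested, and wild-type mice were not analysed here. The barcodes carry 1 suffix and do not tie cells to records, so the 4 records form 1 library, and no difference below has a replicate check. Levels are counts per 1000000 UMIs (CPM) summed over the cells of a class, and are compared between classes, never between genes. Intervals are 95% intervals that cover counting error only: exact Poisson for levels, exact Clopper-Pearson for shares and exact conditional binomial for ratios.

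Blood forms in the marrow from rare stem and progenitor cells that lose self-renewal as they commit to a lineage. Hoxa9 is a homeodomain factor and Meis1 a cofactor of the TALE class that binds DNA together with Hox proteins, and the pair is known for stem cell maintenance and for driving leukaemia. Myb holds progenitors of several lineages in an undifferentiated state, Myc and Mycn drive growth and ribosome production, and Cdk6 is a D-cyclin partner that phosphorylates Rb and moves cells out of quiescence.

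Of 15014 barcodes, 10485 cells were kept, with a median of 4855 UMIs, and 10059 of them fell into 19 named classes. The progenitor-like class held 121 cells (1.15% of those kept) with a median of 13221 UMIs. It joined 3 subclusters that raised 5, 9 and 10 of its 10 markers, among them Cd34, Flt3, Ctla2a, Angpt1 and Cd27 in each. The first of these subclusters, with 50 cells, also raised 4 of 5 plasmacytoid dendritic markers. The naming rules were set after the clusters had been seen. The 5249 cells of the mature side came from 8 classes: neutrophil-like, monocyte-like, macrophage-like, mature B-like, plasma-like, T-like, NK-like and late erythroid-like. Depth differed between classes, with medians of 19058.5 UMIs in granulocyte-monocyte progenitor-like cells, 2703.5 in mature neutrophil-like and 2817 in mature B-like cells.

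The genes lie on different chromosomes of mm10 (GENCODE M21, all protein-coding). Myb spans chr10:21124935-21160984, Myc chr15:61985391-61990374, Mycn chr12:12936093-12941914, Hoxa9 chr6:52223100-52231089, Meis1 chr11:18879817-19018985 and Cdk6 chr5:3341485-3531008. Hoxa9 overlaps Mir196b on its own strand, and Meis1 overlaps Gm37818, 2900018N21Rik and 2610001A08Rik, so reads of these could not be separated by strand. Myb is overlapped on the opposite strand by Gm26577, Meis1 by Gm16140 and Gm16141, and Cdk6 by Gm17590 and Gm42435, and whether counting used the strand is not stated in the labels or headers. RefSeq (GRCm38.p6) gave an upstream sequence for Myb, Mycn, Hoxa9, Meis1 and Cdk6, a window of 250 bases before the start. The sequences of the pair Hoxa9 and Meis1, with the highest ratios below, and of the 2 genes whose window held a searched motif, are given 5′ to 3′, each ending before the first GENCODE exon that its window reaches. Those of Hoxa9 and Cdk6 lie inside the GENCODE gene span, downstream of its 5′ end, and those of Meis1 and Mycn lie just upstream of the span.
Hoxa9, minus strand, chr6:52227371-52227620: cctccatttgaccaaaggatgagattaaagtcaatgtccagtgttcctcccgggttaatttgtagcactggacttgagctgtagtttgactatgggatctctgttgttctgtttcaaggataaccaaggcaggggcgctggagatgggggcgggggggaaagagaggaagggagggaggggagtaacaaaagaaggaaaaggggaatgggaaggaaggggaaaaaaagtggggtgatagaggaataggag
Meis1, minus strand, chr11:19018986-19019219: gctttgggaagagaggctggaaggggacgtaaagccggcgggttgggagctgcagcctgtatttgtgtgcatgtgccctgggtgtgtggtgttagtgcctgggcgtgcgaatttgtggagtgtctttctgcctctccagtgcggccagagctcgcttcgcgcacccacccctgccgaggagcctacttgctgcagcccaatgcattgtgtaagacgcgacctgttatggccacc
Mycn, minus strand, chr12:12941915-12942086: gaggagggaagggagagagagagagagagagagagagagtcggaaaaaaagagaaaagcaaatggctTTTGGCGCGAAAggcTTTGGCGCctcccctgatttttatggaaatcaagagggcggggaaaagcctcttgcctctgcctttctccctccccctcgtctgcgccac
Cdk6, plus strand, chr5:3343643-3343731: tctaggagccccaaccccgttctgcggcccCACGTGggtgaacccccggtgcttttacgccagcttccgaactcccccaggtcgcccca
Capitals mark the matches. The E2F letters TTTNGCGC matched Mycn 3 times, with 2 matches on opposite strands overlapping, and 1.13% of the 32851 upstream sequences of the table held a match on either strand. The MYC E-box CACGTG, which reads the same on both strands, matched Cdk6 at 1 place and was held by 6.02% of all. The MEIS letters TGACAG (15.9% of all) and the MYB letters AACNGTT (3.80% of all) were searched on both strands and matched none of the 5 sequences. These are matches of letters in windows of 250 bases, and no binding was measured.

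In progenitor-like cells all 6 genes were at least 2 times higher than on the summed mature side, with at least 20 UMIs over both sides. Of the 11939 genes with as many UMIs, 35.2% were called higher by the same rule and 14.3% lower. The ratios were 155 (78.4 to 348) for Hoxa9, 63.2 (46.1 to 88.2) for Meis1, 22.8 (9.33 to 59.0) for Mycn, 17.3 (15.8 to 18.8) for Cdk6, 3.71 (3.12 to 4.41) for Myc and 3.17 (2.87 to 3.49) for Myb. With mature classes weighing equally the log2 ratio of Myb moved from 1.66 to 0.998, under 2 times, which ends that call. At a limit of 5% mitochondrial UMIs the log2 ratio of Myc moved from 1.89 to 4.43 and that of Myb to 3.27. The progenitor-like class then held 67 cells, of which at most 25 can be among the 121. With granulocyte-monocyte progenitor-like cells added to the progenitor side, the log2 ratios of Hoxa9, Meis1 and Mycn moved from 7.27, 5.98 and 4.51 to 5.42, 3.76 and 2.22. Haemoglobin took 74.8% of the UMIs of late erythroid-like cells, which lowers all other genes there. When totals were taken without the 50 most abundant genes, 17.0% of genes were higher and 20.4% lower, the median log2 ratio of all genes moved from 0.65 to 0.12, and the log2 ratios of the 6 genes ran from 1.14 for Myb to 6.75 for Hoxa9.

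**Figure D1:**
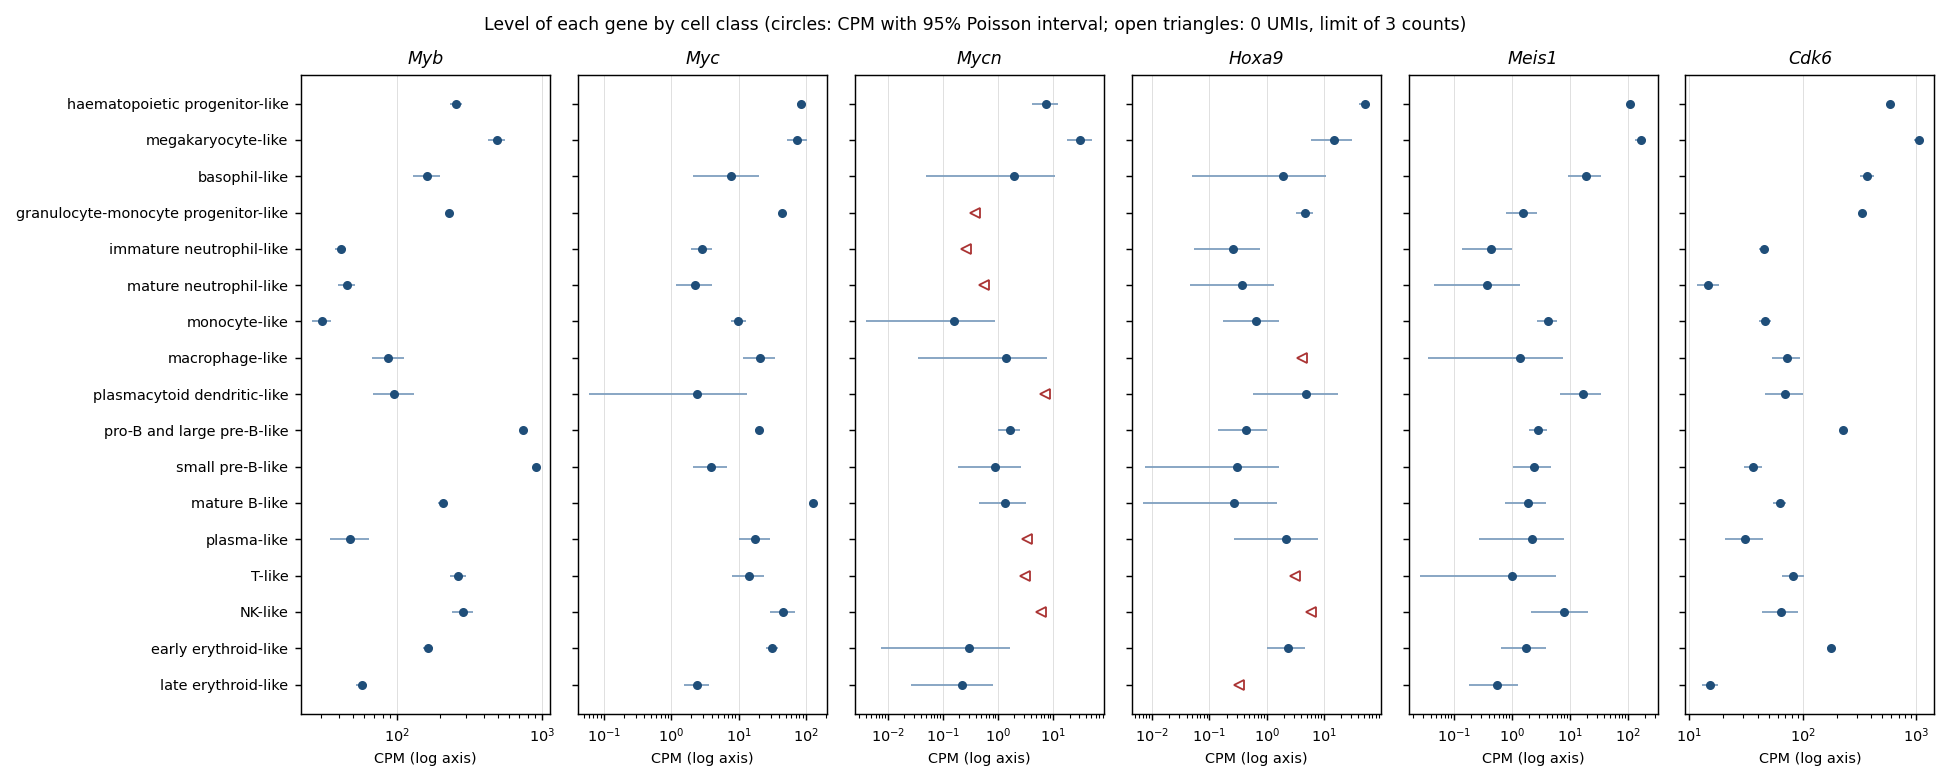
Level of each of the 6 genes (x axis, CPM, log axis, a separate scale for each gene) in 17 blood classes (y axis). Circles are class levels with 95% Poisson intervals and open triangles mark classes with 0 UMIs at the limit of 3 counts. Hoxa9 reaches 51.1 CPM in progenitor-like cells and Meis1 169 CPM in megakaryocyte-like cells, while Myb is highest in the 2 B-precursor classes.

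Hoxa9 was at 51.1 CPM (41.7 to 62.0, 102 UMIs) in progenitor-like cells, which held 57.6% of its 177 UMIs. Megakaryocyte-like cells followed with 14.8 CPM from 7 UMIs, 3.46 times lower (1.62 to 8.82). Granulocyte-monocyte progenitor-like cells had 4.62 CPM (36 UMIs) and early erythroid-like cells 2.36 CPM (8 UMIs). From the megakaryocyte-like class down, each class lay within counting error of the next in the order. In mature B-like cells 1 UMI was found in 1040 cells, in mature neutrophil-like cells 2 UMIs in 1680, and in late erythroid-like cells none in 1323, with a limit of 0.333 CPM.

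Meis1 was highest in megakaryocyte-like cells, at 169 CPM (134 to 210, 80 UMIs), 1.52 times (1.16 to 1.97) the 111 CPM (97.1 to 127, 222 UMIs) of progenitor-like cells. Both stood apart from basophil-like cells, which had 19.3 CPM from 10 UMIs. Meis1 had 12 UMIs in 390 granulocyte-monocyte progenitor-like cells, 1.54 CPM (0.796 to 2.69), and 26 UMIs in monocyte-like cells, 4.16 CPM (2.72 to 6.10). Pro-B-like and large pre-B-like cells had 2.85 CPM. The megakaryocyte-like class rests on 38 cells of the cluster that also gave the progenitor-like cells. They raised all 6 megakaryocyte markers and also 6 of the 10 progenitor markers, which bears on Mycn and Cdk6 in this class as well.

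A Hoxa9 UMI was found in 53 of 121 progenitor-like cells (43.8%, 34.8 to 53.1) and in 1 of 1040 mature B-like cells (0.0962%), the class used as background for the Hox pair. The median depths were 13221 and 2817 UMIs. Thinned to 1000 UMIs per cell, 3 of 121 progenitor-like cells had one (2.48%), against none of 1024 mature B-like cells (upper bound 0.360%). For Meis1 the shares were 68 of 121 (56.2%) against 7 of 1040 (0.673%), and after thinning 18 of 121 (14.9%) against 3 of 1024 (0.293%). Both genes were seen in 42 progenitor-like cells, Hoxa9 alone in 11, Meis1 alone in 26 and neither in 42. After thinning no cell had both, 3 had Hoxa9 alone and 18 Meis1 alone.

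Other Hox and TALE genes were fewer in UMIs. Of 28 on the list, 12 had enough UMIs. Of these, 7 were higher in progenitor-like cells (58.3%, beside 35.2% of all genes) and none lower. The median log2 ratio was 1.23 beside 0.65 for all genes. Without the 50 most abundant genes, 4 were higher. The A-cluster neighbours of Hoxa9 led: Hoxa7 was at 29.6 CPM against 0.514 CPM on the mature side (57.6 times, 31.7 to 112) and Hoxa5 at 16.5 against 0.330 CPM (50.1 times, 23.4 to 119). Tgif1, a TALE repressor, was at 61.6 and 95.1 CPM (ratio 0.648). Hoxa7 was also seen in granulocyte-monocyte progenitor-like cells (27 UMIs, 3.47 CPM, against 1 UMI in mature neutrophil-like cells).

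Myc had its highest level in mature B-like cells, 127 CPM (115 to 139, 461 UMIs), 1.49 times (1.25 to 1.79) the 85.2 CPM (72.9 to 99.0) of progenitor-like cells. Megakaryocyte-like cells followed at 73.9 CPM, then NK-like cells at 46.1, granulocyte-monocyte progenitor-like cells at 44.3 and early erythroid-like cells at 31.6. Progenitor-like and megakaryocyte-like cells did not differ beyond counting error. Within the B lineage, pro-B-like and large pre-B-like cells had 20.3 CPM (17.8 to 23.0), small pre-B-like cells 3.89 CPM (2.07 to 6.66), and both were below mature B-like cells.

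Myc in mature B-like cells was uneven, as it was in progenitor classes. A UMI was found in 151 of 1040 mature B-like cells (14.5%), and 31 cells with 5 or more UMIs held 52.5% of the class's Myc UMIs. Such cells held 63.5% in progenitor-like cells (12 of 121) and 59.1% in granulocyte-monocyte progenitor-like cells (15 of 390). The mature B-like cluster led by Fcer2a was at 125 CPM and the one led by Il4i1 and Egr3 at 129 CPM. The difference lay within counting error (ratio 0.967, 0.802 to 1.17). Nearly the whole class (1018 of 1040 cells) lay above 5% mitochondrial UMIs. With a limit of 5%, 149 cells were named mature B-like, of which at most 22 can be among those 1040, and 73 cells pro-B-like and large pre-B-like. Their Myc levels were 34.2 and 29.5 CPM, and the log2 ratio between the classes moved from -2.64 to -0.21. The highest Myc level was then that of progenitor-like cells, 144 CPM. That class then held 67 cells, of which at most 25 can be among the 121, and no megakaryocyte-like class was named. The part of mitochondrial content in this difference was not tested. In background cells, mature neutrophil-like, a Myc UMI was found in 11 of 1680 (0.655%) at a median depth of 2703.5 UMIs. Thinned to 1000 UMIs, the shares were 6.93% of mature B-like, 5.79% of progenitor-like and 0.247% of mature neutrophil-like cells.

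Mycn, the Myc paralogue best known from neuroblastoma, gave 63 UMIs in all kept cells. Of these, 15 came from 10 progenitor-like cells (7.52 CPM, 4.21 to 12.4), 15 from 5 megakaryocyte-like cells (31.7 CPM, 17.7 to 52.2) and 19 from 19 pro-B-like and large pre-B-like cells (1.64 CPM). No Mycn UMI was found in 390 granulocyte-monocyte progenitor-like cells, a limit of 0.385 CPM, nor in 1680 mature neutrophil-like cells, a limit of 0.568 CPM. A UMI was found in 8.26% of progenitor-like cells without thinning. After thinning to 1000 UMIs the share was 2.48%, against none of 1620 mature neutrophil-like cells (upper bound 0.227%).

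As a share of Myc plus Mycn UMIs, Mycn made up 30% (17.9 to 44.6) in megakaryocyte-like cells, 8.11% (4.61 to 13.02) in progenitor-like cells and 7.48% (4.56 to 11.4) in pro-B-like and large pre-B-like cells. It made up 1.07% (0.349 to 2.49) in mature B-like cells and 0 of 345 UMIs in granulocyte-monocyte progenitor-like cells (upper bound 1.06%). The megakaryocyte-like value rests on few cells. Of its 15 Mycn UMIs, a cell of 34612 UMIs held 7 and another of 43309 UMIs held 5. The pro-B-like value moved between 2.56% and 11.8% with the class boundaries.

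The MYC network list holds Max, factors that bind or compete for it, and other genes (Mlx, Mlxip, Mlxipl, Zbtb17 and Fbxw7). It was split in direction. Of 13 genes, 12 had enough UMIs. In progenitor-like cells 2 were higher (16.7%, beside 35.2% of all genes) and 2 lower (16.7%, beside 14.3%). The median log2 ratio was 0.40 beside 0.65 for all genes. Mycl, the third Myc family member, was at 10.5 against 0.880 CPM (12.0 times) and Mxd3, a repressor found in dividing cells, at 12.0 against 4.59 CPM (2.62 times). Mxd1, a repressor that rises with terminal differentiation, was at 91.2 against 334 CPM (3.67-fold lower, and 1264 CPM in mature neutrophil-like cells), and Mxi1 at 34.6 against 76.9 CPM (2.22-fold lower). The Mycl value rests on 21 UMIs, and its log2 ratio of 3.58 dropped to 0.68 without the subclusters that carry plasmacytoid markers and turned to -0.60 at the limit of 5% mitochondrial UMIs.

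Genes for ribosome production and growth, many of them known MYC targets, were higher together. Of 22 genes, all had enough UMIs and 21 were higher in progenitor-like cells (95.5%, beside 35.2% of all genes). The median log2 ratio was 1.85 beside 0.65 for all genes. Srm, spermidine synthase, was at 80.7 against 14.6 CPM (5.51 times, 4.56 to 6.63) and Nop58, a nucleolar protein, at 262 against 50.3 CPM (5.21 times). The lowest were the cap-binding factor Eif4e (2.51 times) and lactate dehydrogenase Ldha (1.73 times). In granulocyte-monocyte progenitor-like against mature neutrophil-like cells 21 of 22 were higher, beside 42.7% of all genes (median 3.82 beside 0.62 for all genes). In pro-B-like and large pre-B-like against mature B-like cells, where Myc was lower, 4 of 22 (18.2%) were higher, near the 17.9% of all genes, and none lower (median 0.60 beside 0.10 for all genes).

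**Figure D2:**
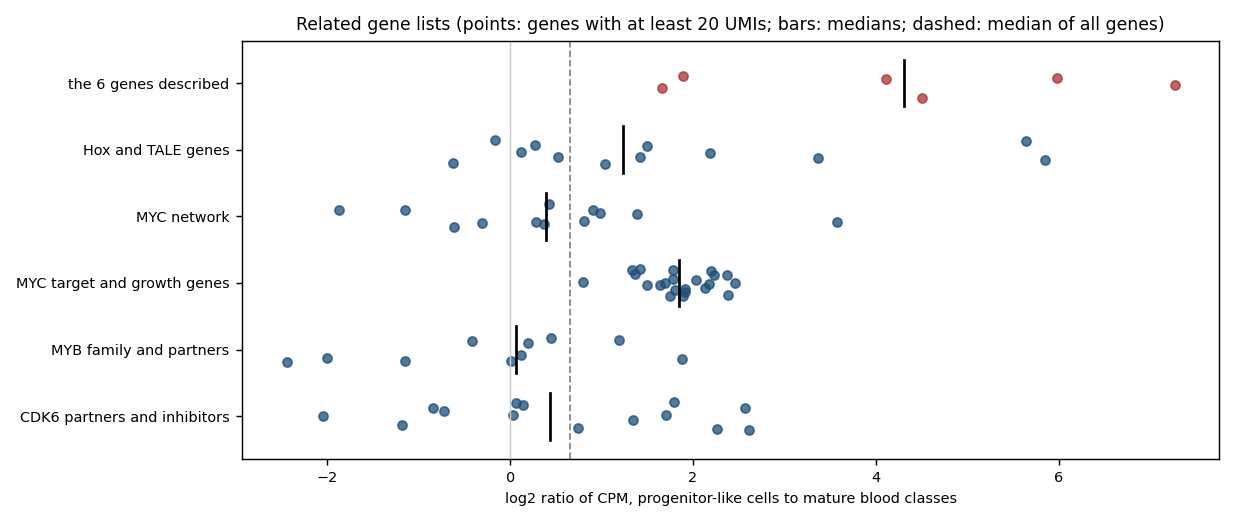
Log2 ratio of CPM in progenitor-like cells to that of the mature blood classes (x axis) for the 6 genes and for 5 lists of related genes (y axis). Points are genes with at least 20 UMIs over both sides, black bars are medians and the dashed line is the median of all genes, 0.65. The growth genes lie together around 1.85, while the MYC network and the MYB partners spread to both sides of 0.

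Myb had 17821 UMIs in kept cells, of which pro-B-like and large pre-B-like cells held 48.6%. Its level was 922 CPM (890 to 955) in small pre-B-like cells, 746 (731 to 762) in pro-B-like and large pre-B-like cells and 490 (429 to 557) in megakaryocyte-like cells. NK-like (286), T-like (266) and progenitor-like cells (257, 235 to 280) followed, and neighbours among these 3 did not differ beyond counting error. Granulocyte-monocyte progenitor-like cells had 228 CPM, mature B-like 208, early erythroid-like 164, late erythroid-like 57.5, mature neutrophil-like 45.3 and monocyte-like cells 30.4. A Myb UMI was found in 83.5% of progenitor-like and 9.11% of mature neutrophil-like cells, and after thinning in 21.5% and 3.52%.

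Because Myb is so abundant in pre-B cells, its level was read beside the 9 markers of pro-B, large pre-B and small pre-B cells. For each marker UMI there were 0.191 Myb UMIs in pro-B-like and large pre-B-like cells and 0.215 in small pre-B-like cells. The values were 0.223 in mature B-like, 0.212 in monocyte-like, 0.209 in macrophage-like and 0.256 in late erythroid-like cells. Mature neutrophil-like cells had 0.397 and immature neutrophil-like cells 0.787. Inside the mature neutrophil-like and late erythroid-like classes single clusters held more of both Myb and the markers. A mature neutrophil-like cluster of 546 cells had 105 CPM of Myb and 425 CPM of the markers, against 18.9 and 36.3 CPM in the largest cluster of 685 cells. A late erythroid-like cluster of 126 cells had 296 CPM of Myb and 1298 CPM of the markers, against 13.8 and 23.4 CPM in the largest of 574 cells. Granulocyte-monocyte progenitor-like cells had 4.50 Myb UMIs per marker UMI, megakaryocyte-like cells 2.39, early erythroid-like cells 1.30 and NK-like cells 1.25. Progenitor-like cells had 0.517, with 0.252 in the subcluster that carries plasmacytoid markers, and T-like cells 0.377. Of the marker UMIs, Dntt gave 652 of 992 in progenitor-like and Il7r 497 of 687 in T-like cells. In the pro-B-like and pre-B-like classes Vpreb3 gave the most, so the ratios of progenitor-like and T-like cells rest largely on another marker. The part of free RNA or of unremoved doublets in the Myb of mature classes was not tested.

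The other genes of the MYB list were mixed. All 10 had enough UMIs. In progenitor-like cells 2 were higher (20%, beside 35.2% of all genes) and 3 lower (30%, beside 14.3%). The median log2 ratio was 0.07 beside 0.65 for all genes. Mybl2, a family member of dividing cells, was at 25.6 against 6.93 CPM (3.69 times, 2.65 to 5.05), and Mybl1 at 2.51 against 1.10 CPM from 5 and 30 UMIs. Cebpb, a myeloid partner, was at 261 against 1049 CPM (4.02-fold lower), and Trib2, a pseudokinase, at 3.01 against 16.4 CPM (5.45-fold lower). Trib2 had 6 UMIs in progenitor-like cells, and its log2 ratio turned to 2.04 at the limit of 5% mitochondrial UMIs.

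Cdk6 was highest in megakaryocyte-like cells, 1047 CPM (957 to 1143), 1.78 times (1.60 to 1.98) the 587 CPM (554 to 622) of progenitor-like cells. Basophil-like (369) and granulocyte-monocyte progenitor-like cells (333) came next and did not differ beyond counting error. A Cdk6 UMI was found in 47.8% of basophil-like and 92.3% of granulocyte-monocyte progenitor-like cells. Of 69 basophil-like cells, 13 with 5 or more UMIs held 85.9% of the class's Cdk6 UMIs. The basophil-like cells also raised 4 progenitor markers. Pro-B-like and large pre-B-like cells had 228 CPM and early erythroid-like cells 177, and all other named classes were at or below 84.0 CPM, down to 15.3 in late erythroid-like and 14.8 in mature neutrophil-like cells. A UMI was found in 90.1% of progenitor-like and 4.17% of mature neutrophil-like cells, and after thinning in 38.8% and 1.17%.

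Among the partners and inhibitors of CDK6, 14 of 17 had enough UMIs. Of these, 6 were higher in progenitor-like cells (42.9%, near the 35.2% of all genes) and 2 lower (14.3%, as for all genes). The median log2 ratio was 0.44 beside 0.65 for all genes. Ccnd1, a D-type cyclin, was at 21.0 against 3.45 CPM (6.10 times, 4.14 to 8.87), and Cdk4, the paralogue of Cdk6, at 227 against 38.4 CPM (5.93 times). The inhibitor Cdkn1b was at 53.1 against 120 CPM (2.26-fold lower) and E2f2 at 40.6 against 168 CPM (4.14-fold lower). The cyclins Ccnd2 and Ccnd3, picked after their values were seen, differed in where they were high. Ccnd2 was at 398 CPM in progenitor-like, 325 in mature B-like and 106 in pro-B-like and large pre-B-like cells. Ccnd3 was at 143, 100.1 and 463 CPM in the same classes and at 473 CPM in early erythroid-like cells.

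Along each lineage the 6 genes were compared between an early and a late class. In granulocyte-monocyte progenitor-like against mature neutrophil-like cells 4 of the 4 genes with enough UMIs were higher, where 42.7% of all genes were called higher and 20.8% lower. The ratios were 22.5 (18.0 to 28.6) for Cdk6, 19.5 (11.0 to 38.1) for Myc, 12.2 (3.14 to 105) for Hoxa9 and 5.05 (4.41 to 5.80) for Myb. Mycn had no UMI on either side, and Meis1 had 12 and 2 UMIs. The Myb ratio depends on the neutrophil class: with at least 1500 UMIs per cell its log2 value moved from 2.34 to 0.55, since mature neutrophil-like cells then had 157 CPM. The log2 ratio of Myc moved from 4.28 to 1.39 at the limit of 5% mitochondrial UMIs.

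In pro-B-like and large pre-B-like against mature B-like cells 2 of the 5 genes with enough UMIs were higher and 1 lower, where 17.9% of all genes were called higher and 12.3% lower. Myb was 3.58 times (3.32 to 3.86) and Cdk6 3.61 times (3.16 to 4.16) higher, and Myc was 6.25-fold lower (5.33 to 7.35). Mycn (19 and 5 UMIs) and Meis1 (33 and 7 UMIs) had ratios of 1.19 (0.431 to 4.08) and 1.48 (0.643 to 3.96), and Hoxa9 had 5 and 1 UMIs. Genes of the cell cycle were at 7182 CPM in pro-B-like and large pre-B-like cells, 1077 in mature B-like and 402 in small pre-B-like cells. Cdk6 was at 228 CPM in the first and 36.8 CPM in the last of these. Myb was 1.24 times (1.19 to 1.29) higher in small pre-B-like than in pro-B-like and large pre-B-like cells. The latter class joined a cluster of 872 cells at 705 CPM of Myb and one of 287 cells, with Dntt among its leading genes, at 932 CPM. Small pre-B-like cells were at 922 CPM, so their higher level held against the first of these clusters only.

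In early against late erythroid-like cells 3 of the 3 genes with enough UMIs were higher, where 81.2% of all genes were called higher and 3.35% lower. The ratios were 12.9 (8.11 to 21.5) for Myc, 11.5 (9.57 to 14.0) for Cdk6 and 2.86 (2.53 to 3.23) for Myb. Without the 50 most abundant genes 37.8% of genes were higher and 15.8% lower, the median log2 ratio of all genes moved from 2.39 to 0.64, Myc and Cdk6 were at 1.94 and 1.77, and Myb turned to -0.24. Hoxa9 had 8 UMIs in early and 0 in late erythroid-like cells, at least 7.08-fold higher against the limit of 3 counts over the class. The early class was uneven: its cluster of 298 cells had 324 CPM of Cdk6 and 293 CPM of Myb, and the other two had at most 21.9 and 27.4 CPM. The median depth of that cluster was 1555 UMIs. Few cells held most of the UMIs. In the early class of 430 cells, 24 with 5 or more Myb UMIs held 76.1% of them. For Cdk6, 32 such cells held 81.6%.

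**Figure D3:**
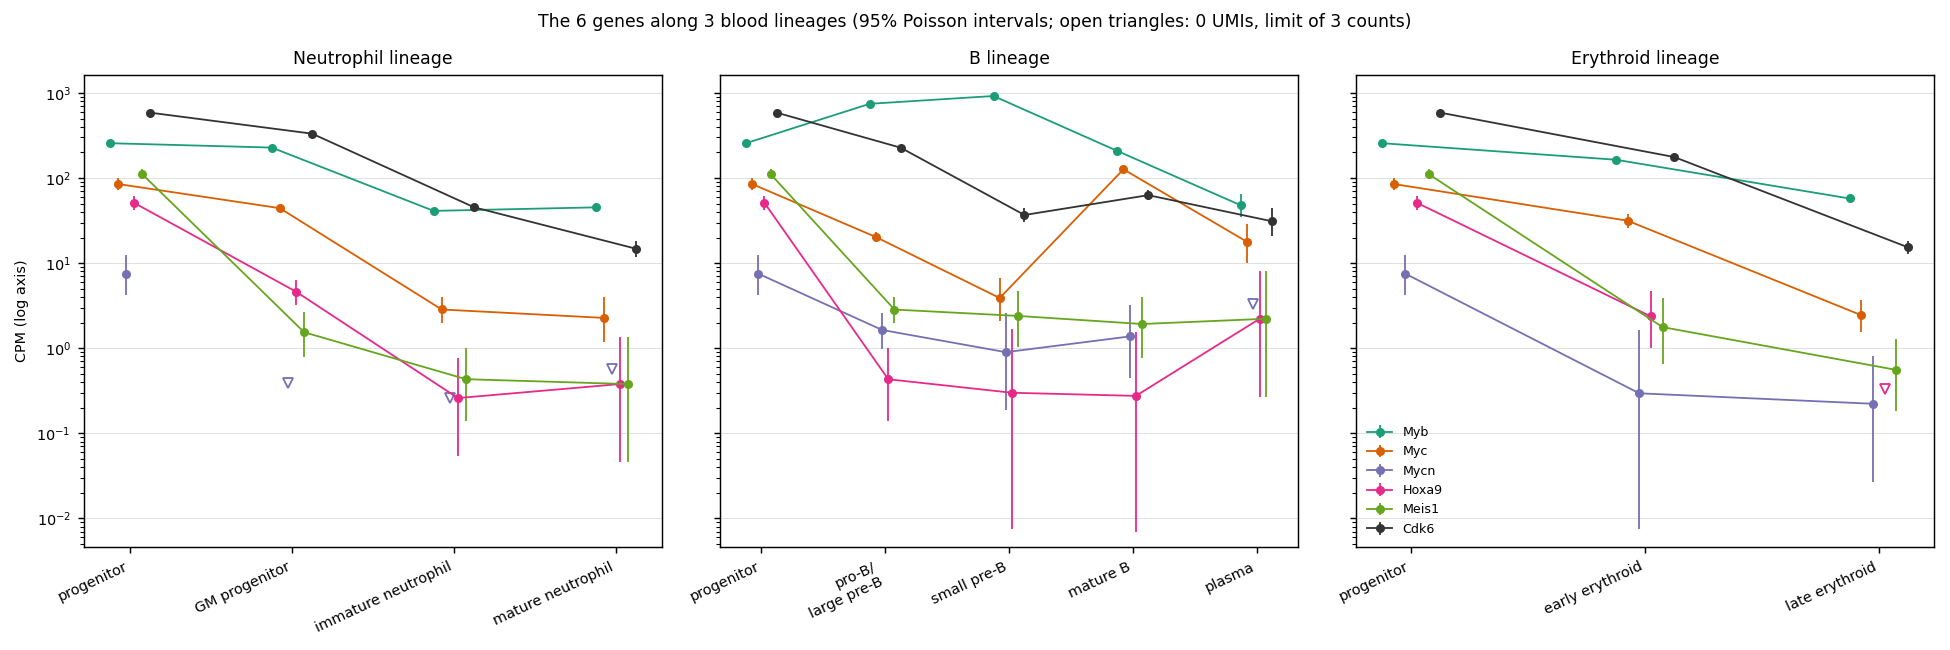
Levels of the 6 genes (y axis, CPM, log axis) along classes ordered as stages of the neutrophil, B and erythroid lineages (x axis). Points carry 95% Poisson intervals, open triangles mark 0 UMIs at the limit of 3 counts, lines join stages of a gene, and levels of different genes are not comparable. Myb is at 922 CPM in small pre-B-like cells, and Myc returns to 127 CPM in mature B-like cells.

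The 3 progenitor-like subclusters differed among themselves. They were led by Nkx2-3, Mecom and Procr (33 cells, with all 10 progenitor markers raised), by Cd34 and Hmga2 (38 cells, median 25742.5 UMIs) and by Slc35d3 and Hmga2 (50 cells, Flt3 also leading). Hoxa9 was itself among the leading genes of the last of these and of the Cd34-led one, though the 6 genes took no part in the clustering. Meis1 was at 288 CPM (237 to 346) in the Mecom subcluster, 80.9 (64.4 to 100.3) in the Cd34 subcluster and 46.5 (30.6 to 67.6) in the Slc35d3 subcluster, and the first stands apart from the other two. Their ratios to the Mecom subcluster were 0.281 (0.209 to 0.377) and 0.162 (0.102 to 0.248), and that of the Slc35d3 to the Cd34 subcluster was 0.574 (0.358 to 0.896).

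Hoxa9 was at 79.6, 36.1 and 58.5 CPM from 31, 37 and 34 UMIs in the same order, and the Cd34 subcluster was 0.453 times (0.273 to 0.755) the Mecom one. Myc in the Slc35d3 subcluster was 0.284 times (0.164 to 0.475) that of the Mecom subcluster. Mycn gave 9, 1 and 5 UMIs in the Mecom, Cd34 and Slc35d3 subclusters. Myb was at 206, 226 and 346 CPM, and the Slc35d3 subcluster was 1.68 times (1.29 to 2.21) the Mecom one. The Slc35d3 subcluster also had 1372 CPM of the 9 pre-B markers, mostly Dntt (495 of 797 UMIs), against 61.7 CPM in the Mecom subcluster, where 6 of the 9 were at 0. Cdk6 was at 609, 672 and 424 CPM. Without the Slc35d3 subcluster, which also carries plasmacytoid markers, the log2 ratios of progenitor-like to mature cells were 7.19 for Hoxa9, 6.29 for Meis1, 2.19 for Myc and 1.44 for Myb.

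**Figure D4:**
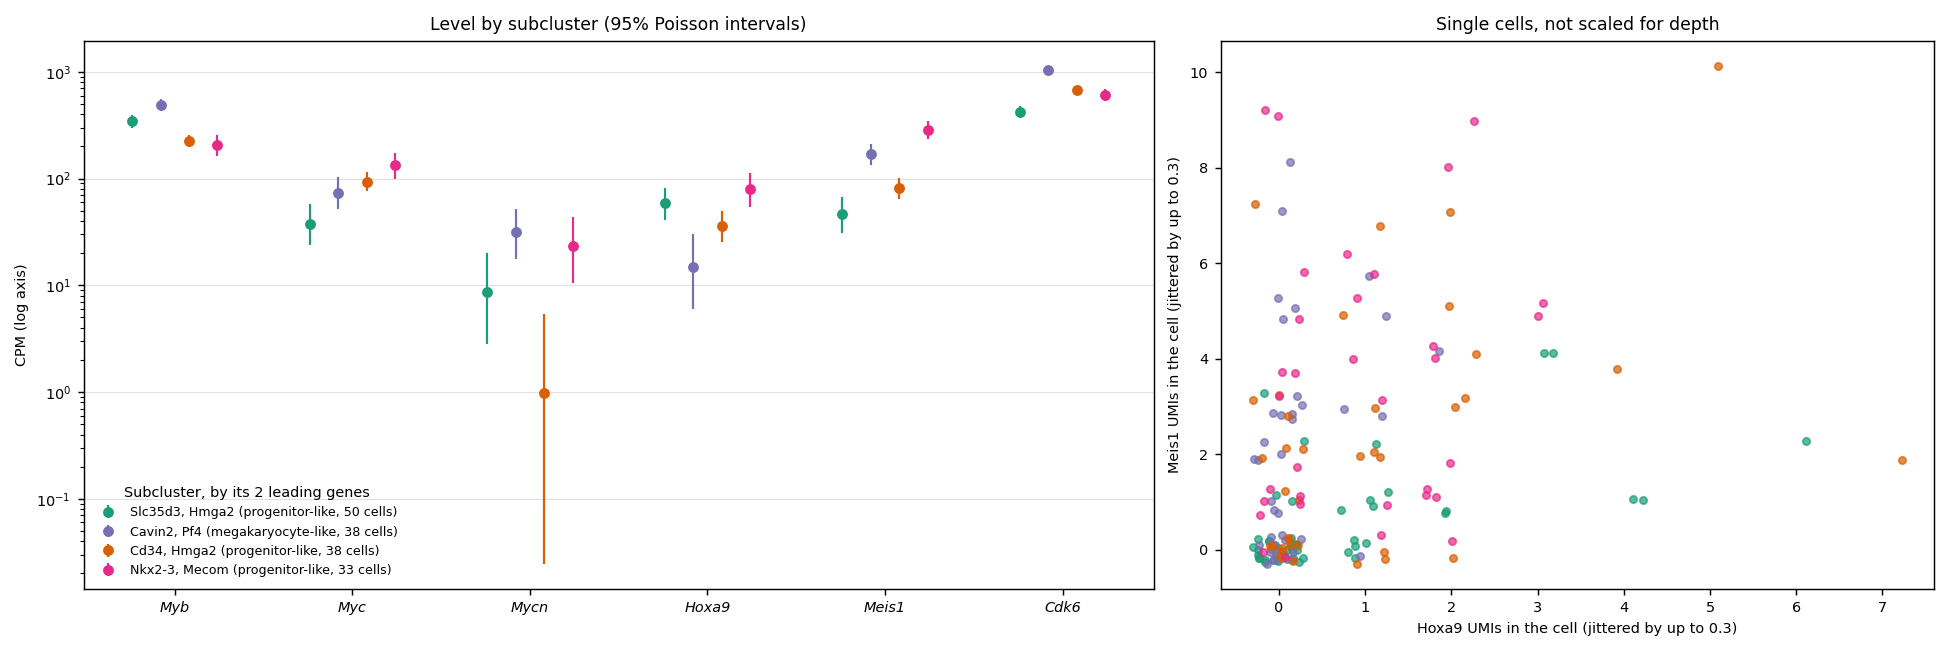
Left, levels of the 6 genes (y axis, CPM, log axis, 95% Poisson intervals) in the 3 progenitor-like subclusters and the megakaryocyte-like subcluster of the same cluster. Right, Hoxa9 and Meis1 UMIs (x and y axes) in each of their cells, jittered and not scaled for depth. Meis1 is at 288 CPM in the subcluster led by Nkx2-3 and Mecom and at 46.5 CPM in the one led by Slc35d3.

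Cycling was set beside these levels, using 16 cell cycle genes. Cells were called cycling with at least 2 UMIs of these genes after thinning to 1000 UMIs, which gave 52 cycling progenitor-like cells and 51 with none. Myb (ratio 1.02, 0.835 to 1.25) and Cdk6 (1.04, 0.912 to 1.19) did not differ beyond counting error. Meis1 (0.511, 0.383 to 0.681), Hoxa9 (0.540, 0.346 to 0.845) and Myc (0.683, 0.493 to 0.950) were lower in the cycling cells, whose median depth was 20686 UMIs against 10681. Mycn had 3 and 8 UMIs. In pro-B-like and large pre-B-like cells, with 944 cycling and 155 not, Myb (0.780), Cdk6 (0.683) and Myc (0.553) were all lower in the cycling cells. In granulocyte-monocyte progenitor-like cells, with 270 cycling and 44 not, Myb (0.800) and Cdk6 (0.752) were lower, while Myc had a ratio of 1.39 (0.899 to 2.27). The subclusters take unequal parts in this split, and their part in it was not tested.

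The genes most alike in their levels were sought over 15 blood classes of at least 50 cells, by Pearson correlation of log2(CPM + 10) among 10293 genes. These classes share 1 library and differ in depth, and a single high class can set the value. The plasma-like class (49 cells) and the megakaryocyte-like class (38 cells) were too small and took no part. Meis1, Mycn and Cdk6 were highest in the megakaryocyte-like class, where Hoxa9 was at 14.8 CPM, so the values below do not cover it. Hoxa9 was most like Myct1 (r = 0.961) and Hmga2 (0.949), Meis1 like Angpt1 (0.899), Hmga2 (0.888) and Adgrl4 (0.885), and Mycn like Mex3a (0.947) and Myct1 (0.897). Krt13, ranked second for Hoxa9 (0.958) and Mycn (0.898), had 2 UMIs in these classes and 514 in unnamed cells. Angpt1 was 1 of the markers that named the progenitor-like class. Cdk6 was most like Ndufaf6 (0.938), Fam92a (0.918) and Abhd14a (0.917), Myb like Zmym1 (0.907), Top3a (0.903) and Cep97 (0.899), and Myc like Smyd5 (0.836), Fastkd3 (0.820) and Atad3a (0.818). Among the 6 genes, r was 0.897 between Hoxa9 and Meis1, 0.836 between Hoxa9 and Mycn, and 0.135 between Hoxa9 and Myb.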

How the data were processed

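The deposited matrix holds raw UMI counts for each gene and barcode and pools the 4 records. Cell Ranger 3.1.0, Seurat 3 and mm10 are named in the submitters' processing notes. A second deposited matrix of added sequences was not used here.

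Barcodes entered with 500 or more UMIs, 200 or more genes and a mitochondrial share up to 10% (11007), and Scrublet in scanpy 1.11.5 removed 522 as doublets. Cells were scaled to 10000 counts, and 2000 variable genes (without the 6 genes and 5 gene lists), 30 components, 15 neighbours and Leiden clustering (leidenalg 0.10.2, resolution 1.0, seed 0) gave 31 clusters. To be raised, a marker needed 2 times the CPM of all remaining cells and a UMI in 10% of the cluster, and a cluster was named "X-like" from at least 3 raised markers. The naming rule was revised after the clusters had been seen, and with the levels of the 6 genes in view. Its first form left the cluster of the progenitor-like cells unnamed and named 18 cells led by Il5 and Il13 progenitors. The second split 3 clusters with competing markers again, and left clusters unnamed that lacked an own leading marker with at most 1 in 2 raised or held 4 foreign markers. The third counted plasmacytoid dendritic cells as myeloid, which named 62 cells. The progenitor-like class was not clustered again beyond that split.

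UMIs were summed per class. Calls of higher or lower needed 2 times the CPM and 20 or more UMIs from the 2 sides together. With 1 library no test was possible. Genes at 0 on 1 side rank first or last in medians. For 0 UMIs the level that 3 counts would give is the limit. The 6 genes and the lists were chosen with earlier results of these data known. The text names from each list the 2 highest and 2 lowest genes by log2 ratio, and for each of the 6 genes the 3 most alike. One result that this rule names is not reported here. The splits by cycling, mitochondrial share and Myb per pre-B marker, the promoter motifs and 2 alternatives (seed 1, plasmacytoid-marked subclusters left out) were added after the data had been seen. Counting and calling were tested on simulated data. Python 3.11.15, numpy 2.4.6, scipy 1.17.1 and pandas 2.3.3 were used.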

Additional observations from a re-analysis of the deposited data

How the results depend on the processing

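Of 192 recomputed log2 ratios of the 6 genes that had been called, 191 kept their sign. Not all of the 19 alternative settings recompute these ratios, and each ratio was recomputed under 10 to 14 of them. Myb between early and late erythroid-like cells turned from 1.51 to -0.24 without the 50 most abundant genes, a change of totals that shifts all genes alike (their median moved from 2.39 to 0.64), and Myb was below that median under both. At the limit of 5% mitochondrial UMIs Mycl turned to -0.60 and Trib2 to 2.04 between progenitor-like and mature cells, both on few UMIs, 2 of 280 recomputed list values. With mature classes weighing equally the log2 ratio of Myb in progenitor-like cells was 0.998, just under 2 times.

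The Mycn share in pro-B-like and large pre-B-like cells was 3.41% with 4000 variable genes, 2.60% at resolution 2.0, 2.56% with at least 1500 UMIs and 11.8% at 5% mitochondrial UMIs. Hox and TALE genes called higher numbered 3 with mature classes weighing equally (21.7% of all genes higher), 14 with no minimum of UMIs (33.8%) and 4 without the 50 most abundant genes (17.0%). For the MYB list the count was 1 at resolution 2.0, with at least 1500 UMIs, with classes from marker UMIs per cell, with granulocyte-monocyte progenitors added, with mature classes weighing equally and without the 50 genes. For the MYC network it was 1 with 4000 variable genes, at resolution 2.0, with at least 1500 UMIs, at 20% mitochondrial UMIs, without the plasmacytoid-marked subclusters, with seed 1 and without the 50 genes, 5 at a call of 1.5 times and 0 with classes from marker UMIs. With no minimum of UMIs 5 of the 6 genes, and 71.4% of all genes, were higher in early erythroid-like cells. The causes were not tested. With at least 1500 UMIs, 24.3% of all genes were higher in granulocyte-monocyte progenitor-like than in mature neutrophil-like cells.

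Shares of progenitor-like cells with a UMI follow the depth. Without thinning they were 90.1% for Cdk6, 83.5% for Myb, 56.2% for Meis1, 43.8% for Hoxa9, 37.2% for Myc and 8.26% for Mycn. Thinned to 2000 UMIs they were 54.5% for Cdk6, 12.4% for Myc and 10.7% for Hoxa9, and to 500 UMIs 22.3% for Cdk6, 9.09% for Myb and 6.61% for Meis1. The progenitor-like class held between 67 and 234 cells. No paired analysis was possible because the 4 records form 1 group and their cells cannot be told apart, and for the same reason leaving out records was not run.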
